A study of Mus musculus with 20 samples.

Results

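Mitosis and spindle genes encode the machinery that divides a cell: the kinases and cyclins that drive mitosis, the kinesin motors and kinetochore proteins that move chromosomes, the proteins that build the spindle and cut the cell, and those that compact and separate chromosomes. A list of 37 such genes was followed across a mouse model of bladder cancer, each by the array row annotated to its symbol. All 37 were measured, by 1 row each, among 30142 named genes. The 20 samples were tissues of FVB/N mice, read on whole-transcript microarrays, and levels are on the log2 scale, so that a difference of 1 is 2-fold.

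Every mouse carried floxed Rb and lacked p107 (Rbl1), so the control bladders lack p107 too. The groups were a treated metastasis (n = 1), metastasis (n = 4), treated bladder (n = 3), bladder tumor (n = 7) and control bladder (n = 5). Tumors were started by placing in the bladder an adenovirus that carries Cre recombinase, which deletes floxed genes in the cells it enters. The treatment combined CM272, which inhibits both DNA methyltransferases and the histone methyltransferase G9a, with the DNA-damaging drug cisplatin. CM272 was given daily at 5 mg/kg over 30 days and cisplatin weekly at 6 mg/kg. The site of the metastases and the age and sex of the mice are not given in the labels. Whether samples of a group are separate animals is not stated in the labels, so the p-values cover only the spread between samples, part of which may be technical. Precision is limited by how few arrays each group has.

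Transcripts of these genes peak late in the cell cycle. In resting cells many of their promoters are held down by the DREAM complex, which contains p107 or its relative p130 together with E2F4 and the MuvB proteins. MuvB later joins B-MYB and FOXM1 and switches the same promoters on. MuvB touches DNA at the cell cycle genes homology region (CHR), with the core letters TTTGAA, often next to CCAAT boxes that bind NF-Y. In adult bladder the urothelium divides rarely, and the level of these transcripts in bulk tissue is widely used as a measure of proliferation. In bulk RNA, fewer dividing cells and less RNA per dividing cell cannot be told apart.

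Promoter windows from 250 bases before to 50 bases after the gene start were found for 33 of the 37 genes in RefSeq (build GRCm38.p6). Ccna2, Tpx2, Aurkb and Kif20a are named only. TTTGAA, searched on both strands, lay in 29 of the 35 windows of these genes (82.9%), against 17.9% of 32851 windows of all genes. CCAAT, also on both strands, lay in 26 of 35 (74.3%), against 37.4% of all, and both motifs lay in 24 of 35 (68.6%), against 6.95% of all. Of the 39 CHR matches, 29 began within 50 bases of the start, and 1 shared a base with a CCAAT match. Ect2 and Prc1 each have more than 1 window, and these overlap, so the same letters are counted in each window. By gene, 27 held a CHR match, 24 a CCAAT match and 22 both. Bub1 and Cenpe held CCAAT alone, Kif2c, Kif15, Ndc80, Anln and Cdca5 held the CHR letters alone, and Nuf2, Birc5, Nusap1 and Ncaph held neither. The share with a CHR match was 75.0% to 85.7% in every role group. For comparison, the letters lay in 35 of 70 windows in a list of other mitosis genes and in 10.8% in a list of DNA replication genes, whose CCAAT share was 59.5%. A match is a description of letters and was not tied to binding in these samples.

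The 250 bases before the start are printed for the 3 genes that held both motifs and had the smallest unadjusted p in bladder tumor against control bladder, to show how the letters lie. Capitals mark CHR and CCAAT matches on either strand, and ATTGG is CCAAT on the opposite strand. They lie, 5′ to 3′ in the direction of the gene, at Cdc20 chr4:118437344-118437593 (minus strand), Ccnb2 chr9:70421555-70421804 (minus strand) and Cdca8 chr4:124936918-124937167 (minus strand).
Cdc20: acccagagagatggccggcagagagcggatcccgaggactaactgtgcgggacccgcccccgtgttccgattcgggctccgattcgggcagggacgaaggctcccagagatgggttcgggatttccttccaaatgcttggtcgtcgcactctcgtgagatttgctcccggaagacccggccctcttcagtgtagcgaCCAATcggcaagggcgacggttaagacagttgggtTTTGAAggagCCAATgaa
Ccnb2: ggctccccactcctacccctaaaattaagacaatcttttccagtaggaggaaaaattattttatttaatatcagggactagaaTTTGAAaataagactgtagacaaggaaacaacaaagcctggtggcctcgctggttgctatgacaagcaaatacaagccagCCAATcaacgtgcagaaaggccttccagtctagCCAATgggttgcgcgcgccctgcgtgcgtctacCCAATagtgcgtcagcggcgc
Cdca8: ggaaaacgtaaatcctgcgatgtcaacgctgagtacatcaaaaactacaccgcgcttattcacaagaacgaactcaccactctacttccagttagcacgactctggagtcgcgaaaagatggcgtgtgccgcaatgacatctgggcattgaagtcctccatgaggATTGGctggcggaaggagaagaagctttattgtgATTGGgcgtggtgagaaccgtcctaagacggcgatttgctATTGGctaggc
Cdc20 carries a CHR match 18 bases before its start between CCAAT boxes at 53 and 8 bases before it. Ccnb2 has a CHR match 167 bases before its start and CCAAT boxes 87, 54 and 21 bases before the start, and Cdca8 has its boxes 85, 51 and 11 bases before it, all on the opposite strand. The CHR match of Cdca8 lies after its start, outside the printed bases.

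One CHR window of 26 bases is shown for 5 of the 6 role groups, to show the letters on either side of the match, whose core is shared because the windows were chosen by it. Each is read in the direction of its own match, with the CHR letters in capitals, at Ccnb2 chr9:70421535-70421560 (minus strand), Kif2c chr4:117178860-117178885 (plus strand), Cenpa chr5:30666892-30666917 (plus strand), Cdc20 chr4:118437346-118437371 (minus strand) and Top2a chr11:99024197-99024222 (plus strand).
Ccnb2: cggcgcggtaTTTGAAtcgcggaccg
Kif2c: attactcaggTTTGAAagagcagcct
Cenpa: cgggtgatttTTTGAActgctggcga
Cdc20: acagttgggtTTTGAAggagccaatg
Top2a: cctagtttcaTTTGAAcctttatcta
The match began 5 bases after the start in Ccnb2 and 17 after it in Cenpa. It began 18 bases before the start in Cdc20, 23 before it in Top2a and 103 before it in Kif2c.

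**Figure D1:**
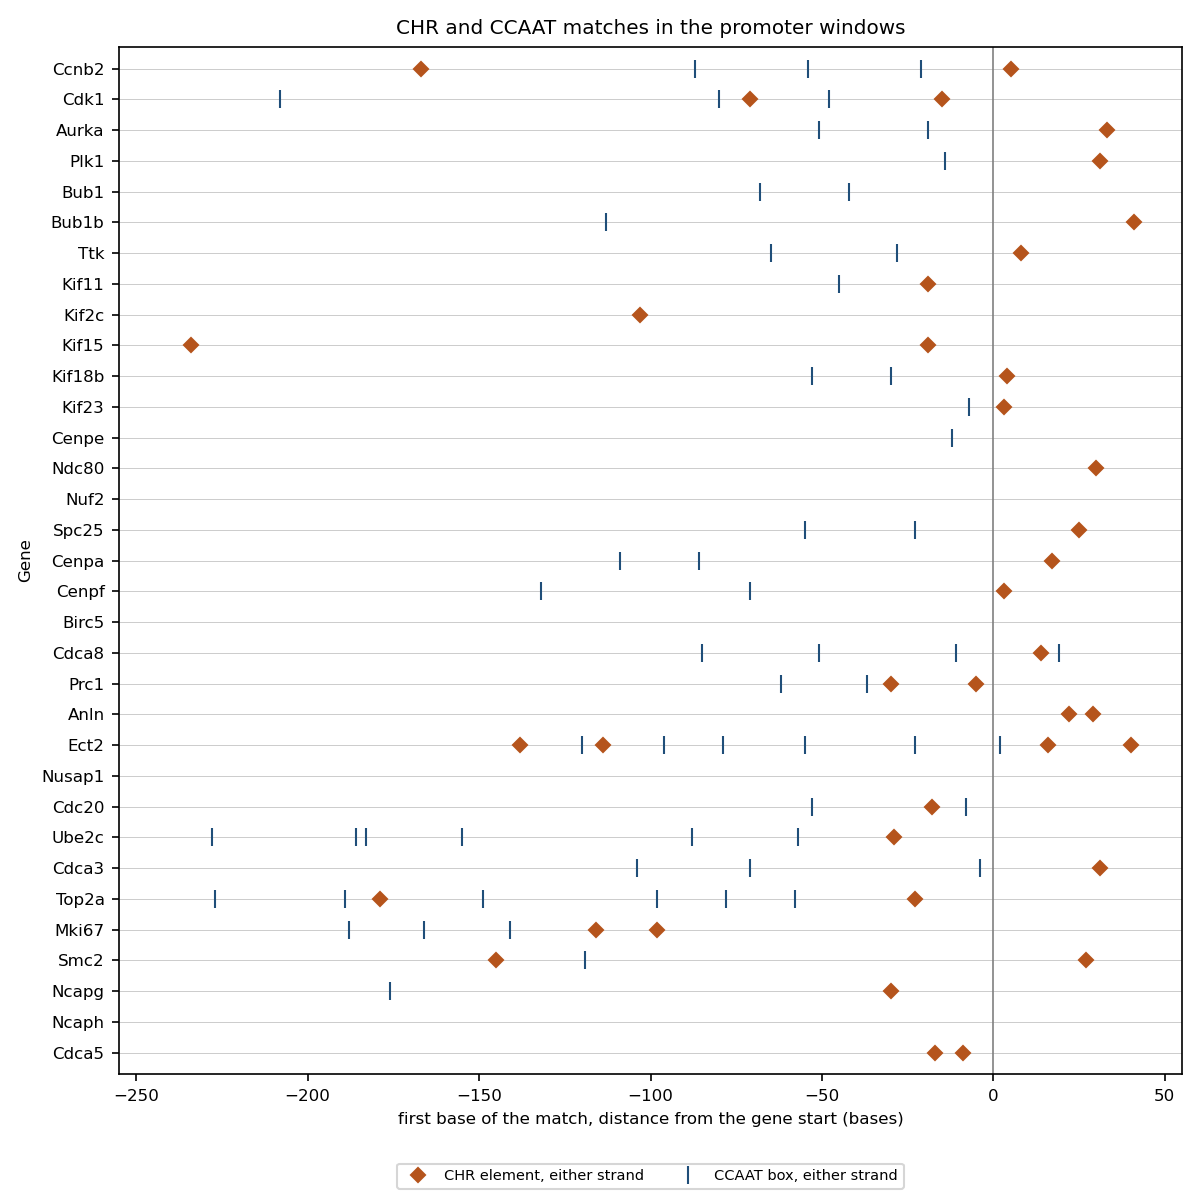
Positions of CHR letters (diamonds) and CCAAT boxes (ticks) on either strand, as the distance in bases from the gene start (0), for the 33 genes with a promoter window, 1 row per gene. Of the 39 CHR matches, 29 lie within 50 bases of the start, where sites of Ect2 and Prc1 are counted in each of their overlapping windows.

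Before any group is compared, 8 arrays have to be set apart. In control bladder 4, 5 and 6, bladder tumor 3, 4 and 5, and metastasis 3 and 4, the deviations of all genes from their means over 20 arrays reached at most r = 0.14 across genes with any other array. The highest such correlation was 0.33 to 0.61 for each of the remaining 12 arrays. These 8 are called near-mean arrays below, and the results are given with and without them. Without them the control group is control bladder 1 and 2 alone. Their Xist level of 10.8 and 10.9 was above the 4.47 to 6.44 of the remaining 10 arrays. A difference from these controls cannot be told apart from one that goes with Xist. Control bladder 1 and 2 also enter every comparison with control bladder over all arrays, so the limit applies there to their part. As a check of tissue, the uroplakin gene Upk1a, a mark of the bladder lining, read 9.46 ± 1.54 in treated bladder, 8.18 ± 2.80 in bladder tumor and 9.40 ± 1.98 in control bladder (SD, n = 3, 7 and 5), against 4.29 in the treated metastasis. The mean over 17 urothelial marker genes was 5.16 and 5.91 in metastasis 1 and 2. It was 6.41 and 6.40 in metastasis 3 and 4, beside 6.47, 6.54 and 6.46 in control bladder 4, 5 and 6.

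In many single arrays outside the near-mean set, most of the 37 genes lay on the same side of their own means. In the near-mean arrays 12 to 23 of the 37 stood above their own mean. All 37 stood above their own mean in bladder tumor 6, 36 in metastasis 1, 36 in the treated metastasis and 35 in bladder tumor 2. None did in bladder tumor 7, control bladder 1 or control bladder 2, 1 did in treated bladder 1 and 2 in treated bladder 3. Metastasis 1 held the highest value of 20 genes, bladder tumor 6 of 7 and the treated metastasis of 7, while the lowest value lay in control bladder 1 for 21 genes, control bladder 2 for 10 and bladder tumor 7 for 4. The share of all genes above their own mean was 38.9% in metastasis 1, 37.7% in bladder tumor 6 and 42.0% in control bladder 1.

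The mean level over the 37 genes was 6.50 in the treated metastasis, 6.69, 5.68, 5.76 and 5.74 in metastasis 1 to 4, and 5.32, 5.94 and 5.41 in treated bladder 1 to 3. In bladder tumor 1 to 7 it was 5.85, 6.18, 5.80, 5.80, 5.74, 6.50 and 5.29, and in control bladder 1, 2, 4, 5 and 6 it was 5.15, 5.20, 5.73, 5.77 and 5.82. The near-mean arrays lay between 5.73 and 5.82 whatever their group, whereas the other 12 ran from 5.15 to 6.69. The median SD of the 37 genes was 0.16 over the 8 near-mean arrays and 0.52 over the other 12, where all genes had 0.25 and 0.26. The SD was larger in the other 12 arrays for 36 of the 37 genes, Cdca5 being the exception, and for 49.6% of all genes. The test used below assumes 1 spread per gene for all arrays in the fit, which need not hold here. Over all arrays, the SEs and p-values of these genes may therefore be too small, also for treated bladder, which holds no near-mean array.

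**Figure D2:**
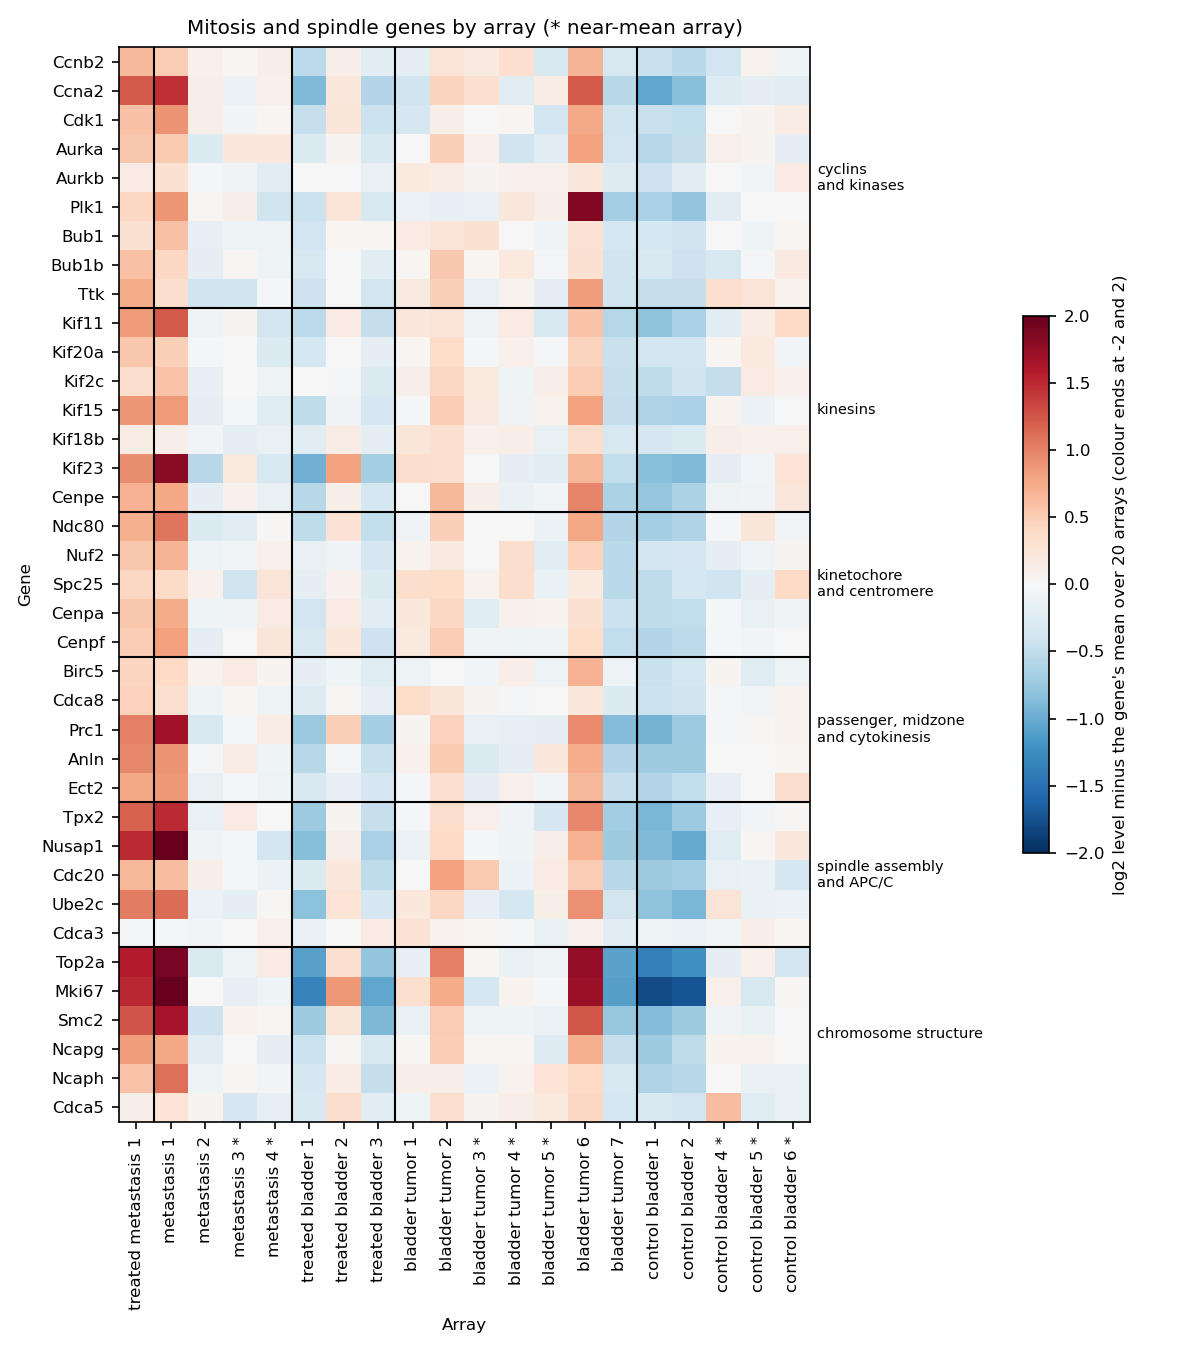
Heat map of the 37 genes (rows, by role group) in 20 arrays (columns, by group), coloured by the log2 level minus the gene's own mean over all arrays, with colour ending at -2 and 2. Near-mean arrays, marked with *, are pale in every group, metastasis 1, the treated metastasis and bladder tumor 6 are red, and control bladder 1 and 2 and bladder tumor 7 are blue.

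The genes differed in how widely they ranged. Mki67, which encodes the Ki-67 protein that coats mitotic chromosomes and is the standard stain for dividing cells, had an SD of 1.12 over 20 arrays, above 99.3% of all genes. Top2a, the topoisomerase that untangles sister DNA, followed with 0.94, and Nusap1, a microtubule-binding spindle protein, with 0.75. At the other end Cdca3, a part of a ubiquitin ligase that acts at mitotic entry, had an SD of 0.12, above 6.8% of all genes, and Aurkb had 0.18. The mean of 14 of the 37 genes, against 29.5% of all genes, was above 5.86, the 95th percentile of 1758 chemosensory receptor genes, a set that bladder tissue is not known to use. The means of the remaining members lay below that percentile, among them Cdca3 and Aurkb but also Nusap1. Cdc20 (5.61), Birc5 (5.13) and Ccnb2 (5.07) were among them too.

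Bladder tumor was compared with control bladder to ask how tumor formation changes these genes. The mean of all 37 was higher in tumors, against 53.0% of all genes, with a median difference of 0.31 (range 0.04 to 0.94) where the median over all genes was 0.01. None passed the test (limma, adjusted p = 0.999 for each), against 0.0% of all genes called. By unadjusted p under 0.05, 2 of the 37 were higher, Cdc20 and Birc5, against 2.32% of all genes. Over all arrays both genes averaged below 5.86, the chemosensory percentile. The tumor and control arrays overlapped for every one of the 37, where 0.106% of all genes had every tumor above every control. Without the near-mean arrays, with 4 tumors and 2 controls, all 37 means were higher, against 61.1% of all genes, and the median difference was 0.75 (range 0.16 to 2.18). None passed (limma, adjusted p = 0.987 for each), against 0.00332% of all genes called. In that set 24 of the 37 had every tumor above both controls, against 7.79% of all genes, and 11 had an unadjusted p under 0.05, against 1.71%. The mean level over the 37 genes was 5.74 to 5.80 in the near-mean tumors and 5.73 to 5.82 in the near-mean controls. With and without these arrays, the difference thus rests largely on the same 4 tumors and 2 controls. The 37 genes tended to share their high and low arrays, so such counts, here and below, are not 37 separate observations.

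Chromosome structure genes had some of the largest differences. Mki67 read between 5.63 and 8.46 with a median of 6.81 in the 7 bladder tumors, against 4.94, 5.01, 6.85, 6.42 and 6.77 in control bladder 1, 2, 4, 5 and 6. Control bladder 1 and 2 were below every tumor, the other controls lay among the tumors, and the mean difference was 0.94 (SE 0.56). Top2a read between 5.35 and 8.18 with a median of 6.32 in tumors, against 5.05, 5.18, 6.22, 6.51 and 6.06 in controls, a difference of 0.80 (SE 0.46). Bladder tumor 7, at 5.35, lay among the controls, and bladder tumor 2 and 6 lay above all of them. Smc2, a core subunit of condensin, averaged 6.59 ± 0.63 in tumors and 6.15 ± 0.40 in controls (SD, n = 7 and 5). The condensin I subunits Ncapg and Ncaph differed by 0.30 and 0.37, and Cdca5 (sororin), which protects cohesion between sister chromatids, by 0.19.

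Among the genes for spindle assembly and the anaphase-promoting complex, Cdc20 had the smallest p of all 37. Cdc20, the activator that lets the complex start anaphase, read between 5.05 and 6.42 with a median of 5.77 in tumors, against 4.90, 4.93, 5.46, 5.47 and 5.26 in controls. Bladder tumor 7 was the 1 tumor below the highest control, and the mean difference was 0.59 (SE 0.21, a fold of 1.51, limma unadjusted p = 0.0118). Ube2c, the ubiquitin-conjugating enzyme of the same complex, differed by 0.45, Nusap1 by 0.42 and Tpx2, which activates Aurora A on spindle microtubules, by 0.41. Cdca3 averaged 5.25 ± 0.17 in tumors and 5.21 ± 0.11 in controls (SD, n = 7 and 5), the smallest difference of the 37.

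The 9 cyclin and kinase genes had a median difference of 0.28. Ccna2 (cyclin A2), which carries cells through S phase into mitosis, read between 5.83 and 7.61 with a median of 6.53 in tumors, against 5.34, 5.55, 6.13, 6.21 and 6.16 in controls. It was higher by 0.65 (SE 0.32), with bladder tumor 1, 4 and 7 inside the control range. Plk1, the kinase of spindle poles and mitotic entry, differed by 0.49 (SE 0.33), and bladder tumor 6 alone read 7.82 where the other tumors were at or below 6.21. Ccnb2 (cyclin B2) differed by 0.37, and its partner kinase Cdk1 by 0.12. The Aurora kinases Aurka (spindle poles) and Aurkb (centromeres) differed by 0.28 and 0.18. Of the spindle checkpoint kinases, Bub1 differed by 0.24, Bub1b by 0.28 and Ttk (Mps1) by 0.18.

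The 7 kinesins had a median difference of 0.34. Kif23, the centralspindlin motor of cytokinesis, read between 6.43 and 7.59 with a median of 6.91 in tumors, against 6.08, 6.03, 6.73, 6.86 and 7.20 in controls, a difference of 0.41 (SE 0.38). Control bladder 1 and 2 lay below every tumor and control bladder 6 lay above the tumor median. Kif15, which helps to keep the spindle bipolar, and Cenpe, which carries chromosomes to the metaphase plate, each differed by 0.40. Kif2c, a microtubule depolymerase that corrects wrong attachments, differed by 0.34, Kif11 (Eg5), which pushes spindle poles apart, by 0.26, Kif20a, a motor of the midzone, by 0.18, and Kif18b, which trims astral microtubules, by 0.16.

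The 5 kinetochore and centromere genes differed by 0.23 to 0.32. Cenpa, the histone H3 variant that marks centromeres, averaged 6.11 ± 0.30 in tumors and 5.80 ± 0.23 in controls (SD, n = 7 and 5), a difference of 0.32. The NDC80 complex, which grips microtubules, gave 0.29 for Ndc80, 0.23 for Nuf2 and 0.31 for Spc25, and the outer kinetochore protein Cenpf gave 0.29.

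Of the 5 passenger, midzone and cytokinesis genes, Birc5 (survivin), a subunit of the chromosomal passenger complex, read between 5.02 and 5.82 with a median of 5.08 in tumors, against 4.68, 4.77, 5.19, 4.90 and 5.03 in controls. All tumors were above control bladder 1, 2 and 5, and the mean difference was 0.29 (SE 0.13, limma unadjusted p = 0.0436). Cdca8 (borealin), from the same complex, differed by 0.25. Prc1, which bundles midzone microtubules, differed by 0.33, Anln (anillin), the scaffold of the contractile ring, by 0.35, and Ect2, the exchange factor that activates RhoA there, by 0.23. The medians of the 6 role groups ranged from 0.28 for the kinases to 0.42 for the spindle assembly genes.

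Single arrays moved many of these differences by over 1.5 times. Leaving out bladder tumor 6 did so for 14 of the 37 genes, control bladder 1 for 12 and control bladder 2 for 10, and each other array of the comparison for at most 3. Prc1 differed by 0.18 without control bladder 1 and by 0.18 without bladder tumor 6, Ndc80 by 0.18 without either, and Plk1 by 0.20 without bladder tumor 6. Nusap1 differed by 0.26 and Kif23 by 0.27 without control bladder 2. The sign turned for Cdk1 without bladder tumor 6 (-0.01) and for Cdca3 without bladder tumor 1 (-0.01).

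**Figure D3:**
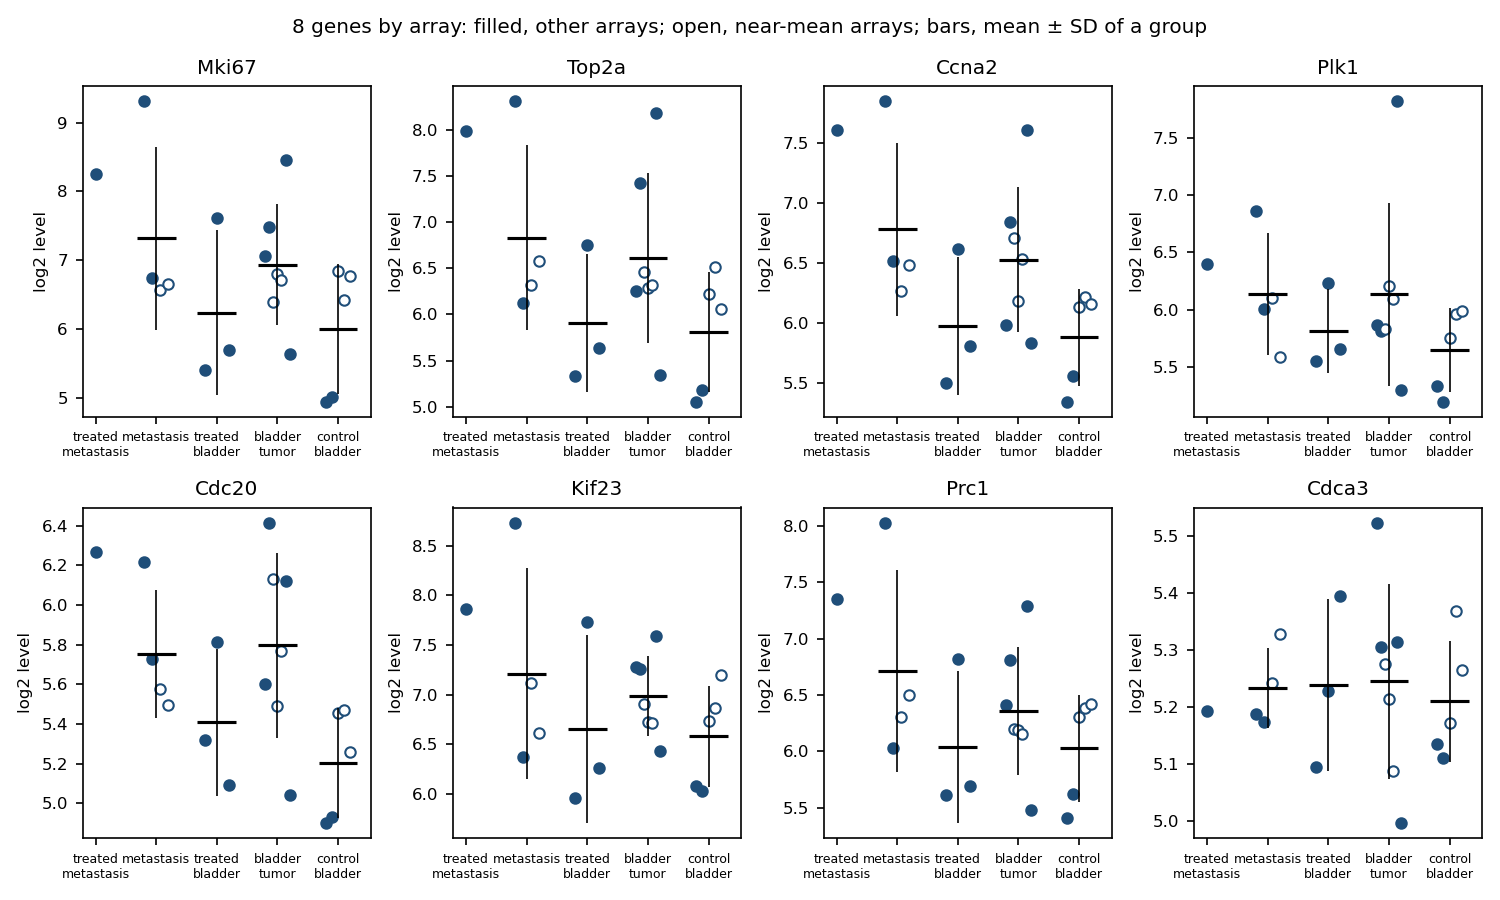
Log2 level of 8 genes in each array by group, with filled points for the other 12 arrays, open points for the 8 near-mean arrays, and bars for the mean ± SD of each replicated group. Near-mean arrays sit at similar levels in metastasis, bladder tumor and control bladder, and treated bladder 2 stands above treated bladder 1 and 3 for 7 of the 8 genes.

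Treated bladder was compared with bladder tumor to ask what CM272 with cisplatin does to the same genes. The mean of all 37 was lower in treated bladder, against 50.6% of all genes, with a median difference of -0.30 (range -0.70 to -0.01) where the median over all genes was -0.002. None passed the test (limma, adjusted p = 1.0 for each), against 0.0% of all genes called. None had an unadjusted p under 0.05, against 0.063% of all genes in that direction, the smallest being 0.107 for Kif15. Treated bladder and tumor arrays overlapped for each of the 37 genes, where 0.0332% of all genes had every treated bladder below every tumor. Without the near-mean arrays all 37 means were again lower, against 55.7% of all genes, by a median of -0.38 (range -0.92 to -0.05), with none passing (0.0% of all genes called) and every gene overlapping, where 0.182% of all genes did not overlap in that direction.

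The treated bladders were not alike. Mki67 read 5.40, 7.61 and 5.70 in treated bladder 1, 2 and 3, against between 5.63 and 8.46 with a median of 6.81 in tumors. Treated bladder 1 was below every tumor, treated bladder 3 was above bladder tumor 7 alone, and treated bladder 2 was above all tumors but bladder tumor 6, and the mean difference was -0.70 (SE 0.67). Top2a read 5.34, 6.75 and 5.63 in treated bladders, against between 5.35 and 8.18 with a median of 6.32 in tumors, a difference of -0.70 (SE 0.54). Treated bladder 2 again lay above the tumor median and treated bladder 1 below every tumor. Leaving treated bladder 1 out gave 2 of the 37 genes a higher mean in treated bladder, leaving bladder tumor 1, 2 or 6 out gave 1, and the median difference was -0.20 without treated bladder 1 and -0.46 without treated bladder 2. The difference moved by over 1.5 times for 21 of the 37 genes without treated bladder 1, 21 without treated bladder 2, 14 without treated bladder 3 and 13 without bladder tumor 6.

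In each of the 6 role groups the median deviation from the genes' own means was higher in treated bladder 2 than in treated bladder 1 and 3. Among the kinases, Ccna2 read 5.50, 6.62 and 5.80 in treated bladders, against between 5.83 and 7.61 with a median of 6.53 in tumors, and differed by -0.55 (SE 0.37). Ttk differed by -0.39, Plk1 by -0.32, Ccnb2 by -0.30, Bub1b by -0.29, Aurka by -0.24, Cdk1 by -0.19, Bub1 by -0.19 and Aurkb by -0.12. Among the kinesins, Kif15 read 5.18, 5.61 and 5.34 in treated bladders, against between 5.20 and 6.48 with a median of 5.75 in tumors, and differed by -0.44 (SE 0.26). Treated bladder 1 was below every tumor for both Ccna2 and Kif15, treated bladder 3 was so for Ccna2, and treated bladder 2 lay within the tumor range. Cenpe differed by -0.40, Kif23 by -0.34, Kif11 by -0.32, Kif20a by -0.24, Kif2c by -0.23 and Kif18b by -0.18.

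For the kinetochore, Ndc80 read 5.65, 6.44 and 5.66 in treated bladders, against between 5.56 and 6.92 with a median of 6.14 in tumors, and differed by -0.30. Treated bladder 2 was above 5 of the 7 tumors. Nuf2 differed by -0.24, Cenpf by -0.23, Spc25 by -0.22 and Cenpa by -0.21. For cytokinesis, Anln averaged 5.28 ± 0.28 in treated bladders and 5.70 ± 0.46 in tumors (SD, n = 3 and 7), a difference of -0.42, with Prc1 at -0.32, Ect2 at -0.31, Birc5 at -0.23 and Cdca8 at -0.22. For spindle assembly, Nusap1 differed by -0.50, Tpx2 by -0.43, Ube2c by -0.40, Cdc20 by -0.39 and Cdca3 by -0.01. Of the remaining chromosome structure genes, Smc2 differed by -0.53, Ncapg by -0.32, Ncaph by -0.30 and Cdca5 by -0.15. Both comparisons use the same 7 tumors, so the differences of tumor from control and of treated bladder from tumor are not independent of each other.

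**Figure D4:**
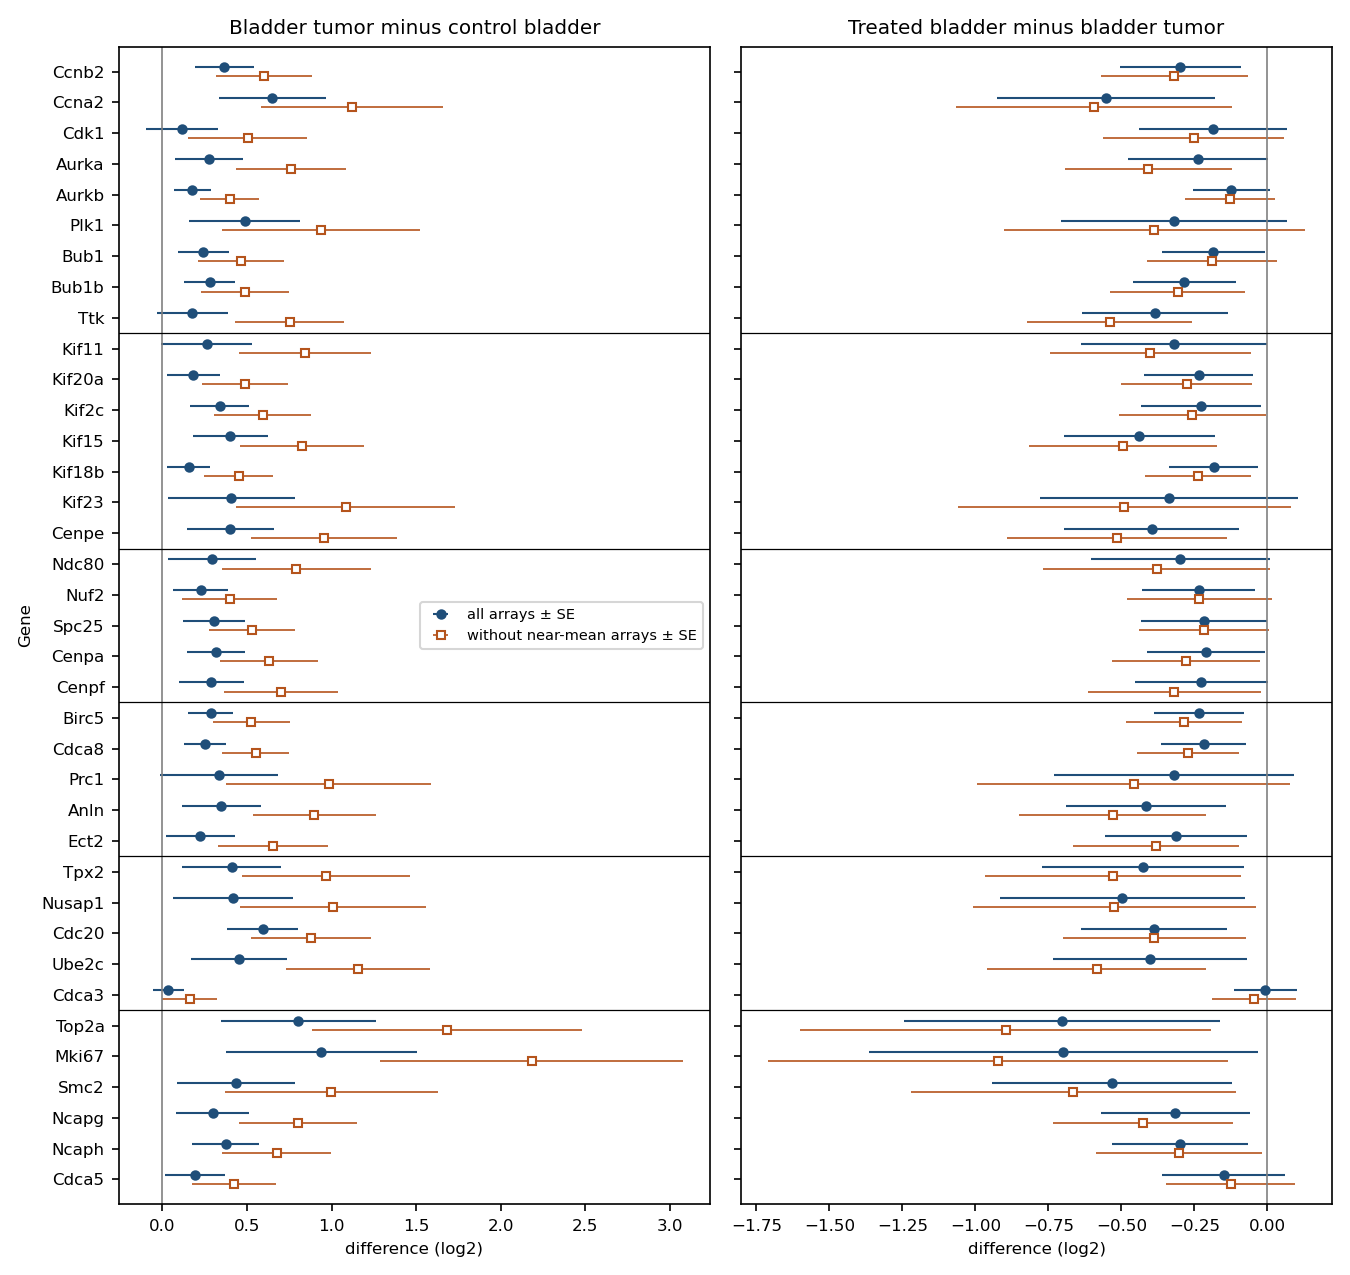
Difference in log2 level of each of the 37 genes (rows, by role group), with bladder tumor minus control bladder on the left and treated bladder minus bladder tumor on the right. Filled circles use all arrays and open squares leave out the near-mean arrays, and bars are ± SE from limma. All circles lie above 0 on the left and below 0 on the right, and no gene passed the test in either panel.

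Treated bladder against control bladder gave differences on both sides of 0. The mean of 22 of the 37 was higher in treated bladder, against 52.8% of all genes, with a median difference of 0.03 (range -0.21 for Ttk to 0.24 for Mki67) and none passing (limma, adjusted p = 1.0 for each, 0.0% of all genes called). The smallest unadjusted p was 0.443, for Ttk. Mki67 averaged 6.24 ± 1.20 in treated bladder and 6.00 ± 0.95 in control bladder (SD, n = 3 and 5), Cdc20 5.41 ± 0.37 and 5.20 ± 0.28, and Plk1 5.81 ± 0.37 and 5.65 ± 0.37. Other differences were 0.11 for Kif2c, 0.11 for Cenpa, 0.09 for Spc25, 0.05 for Birc5, -0.09 for Ect2 and -0.10 for Smc2. Without the near-mean arrays all 37 means were higher than in control bladder 1 and 2, against 60.2% of all genes, by a median of 0.35, and 25 did not overlap, against 9.98%. None of the 37 passed there, against 0.00332% of all genes called. Single arrays moved the count of higher means too. Leaving out treated bladder 1 gave 34 and treated bladder 2 gave 5, and among the controls, leaving out control bladder 1 gave 8, control bladder 2 gave 11 and control bladder 6 gave 34. With the replicate number as a block it was 37.

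Metastases were compared with control bladder and with bladder tumor. Against control bladder, the mean of 35 of the 37 genes was higher in metastasis, against 47.1% of all genes, with a median difference of 0.40 (range -0.07 for Ttk to 1.32 for Mki67). None passed the test (limma, adjusted p 0.676 to 0.994), against 0.0% of all genes called. By unadjusted p under 0.05, 7 were higher, against 3.13% of all genes, namely Birc5, Ccna2, Ncaph, Ccnb2, Cenpa, Cdc20 and Tpx2. Ccna2 and Cdc20 had every metastasis above every control, against 0.995% of all genes. Without the near-mean arrays, with 2 metastases and 2 controls, all 37 means were higher, against 47.5% of all genes, by a median of 0.90. All 37 had both metastases above both controls, against 22.5% of all genes, and none passed (limma, adjusted p 0.541 to 0.998), against 0.0166% of all genes called.

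Ccna2 read 7.85, 6.51, 6.27 and 6.48 in metastasis 1 to 4, against 5.34, 5.55, 6.13, 6.21 and 6.16 in controls, a difference of 0.90 (SE 0.36, limma unadjusted p = 0.0231). Cdc20 read 6.22, 5.73, 5.58 and 5.50 in metastases, against 4.90, 4.93, 5.46, 5.47 and 5.26 in controls, a difference of 0.55 (SE 0.24). For both genes the lowest metastasis and the highest control were close, 6.27 and 6.21 for Ccna2 and 5.50 and 5.47 for Cdc20. Birc5 read 5.53, 5.20, 5.29 and 5.18 in metastases, against 4.68, 4.77, 5.19, 4.90 and 5.03 in controls, a difference of 0.39 (SE 0.15, limma unadjusted p = 0.0186, the smallest of the 37). Control bladder 4 read just above the lowest metastasis. Ncaph differed by 0.54, Tpx2 by 0.75, Nusap1 by 0.76, Prc1 by 0.69, Kif23 by 0.63, Top2a by 1.03 and Cenpa by 0.45.

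Against bladder tumor, the mean of 23 of the 37 was higher in metastasis, against 43.8% of all genes, by a median of 0.10 (range -0.24 for Ttk to 0.38 for Mki67). None passed (limma, adjusted p 0.863 to 1.0, 0.0% of all genes called), and none had an unadjusted p under 0.05, against 2.51% of all genes higher and 3.49% lower. Mki67 read 9.31, 6.73, 6.57 and 6.66 in metastasis 1 to 4, against between 5.63 and 8.46 with a median of 6.81 in tumors. Metastasis 1 was above every tumor and the other 3 lay below the tumor median. Nusap1 read 7.85, 5.77, 5.82 and 5.46 in metastases, against between 5.14 and 6.54 with a median of 5.83 in tumors, and Kif23 read 8.73, 6.38, 7.12 and 6.61, against between 6.43 and 7.59 with a median of 6.91. In both, metastasis 1 again stood above every tumor. Without metastasis 1, 3 of the 37 means were higher in metastasis and the median difference was -0.18, so the direction rests on that sample. Without the near-mean arrays, with 2 metastases and 4 tumors, 31 of the 37 means were higher, against 38.4% of all genes, by a median of 0.20. None passed there, against 0.0133% of all genes called. Leaving metastasis 1 out took the median difference from control bladder to 0.18 and moved the difference of 33 of the 37 genes by over 1.5 times.

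With 1 sample, the treated metastasis was not tested. It lay above all 4 metastases for 13 of the 37 genes, against 14.4% of all genes, within their range for 24 and below it for none, against 19.1% of all genes. Its median difference from the metastasis mean was 0.51 (range -0.04 for Cdca3 to 1.15 for Top2a). The mean and range of the metastases include metastasis 3 and 4, which are near-mean arrays. Mki67 read 8.25 in the treated metastasis, against 9.31, 6.73, 6.57 and 6.66 in metastasis 1 to 4. Top2a read 7.98, against 8.31, 6.12, 6.32 and 6.57, and Nusap1 7.33, against 7.85, 5.77, 5.82 and 5.46. For these 3 genes it lay below metastasis 1 and above the other 3 metastases. Over metastasis 1 and 2 alone, Mki67 averaged 8.02, Top2a 7.22 and Nusap1 6.81. Ttk read 6.05 in the treated metastasis, against 5.66, 4.91, 4.91 and 5.28 in metastases, and was above all 4. The other genes above all 4 were Ccnb2, Aurka, Bub1b, Kif20a, Kif15, Kif18b, Spc25, Birc5, Cdca8, Anln, Cdc20 and Ncapg.

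Other genes of the same processes followed lists written out beside the 37. Of 70 other mitosis genes measured, 65 had a higher mean in bladder tumor than in control bladder (median difference 0.19) and 67 a lower one in treated bladder than in bladder tumor (median -0.16), with none passing the test in either. Spag5 (astrin), a spindle protein, averaged 5.57 ± 0.21 in tumors and 5.28 ± 0.12 in controls (SD, n = 7 and 5). Its difference of 0.29 had the smallest unadjusted p of that list (limma, 0.00923), and both means lay below 5.86, the chemosensory percentile. Oip5, which loads Cenpa onto centromeres, differed by 0.34, Racgap1, the partner of Kif23 in centralspindlin, by 0.27, Troap by 0.30 and Dlgap5, which stabilises spindle microtubules, by 0.35. In treated bladder against bladder tumor, Depdc1a differed by -0.84, Cenpw by -0.44, Cenpq by -0.23, Cenph by -0.22 and Racgap1 by -0.21. Troap differed by 0.54 in metastasis against control (limma unadjusted p = 0.00237, adjusted p = 0.676), with Cep55, which acts at abscission, at 0.68, Pttg1 (securin) at 0.57, Kif4 at 0.47 and Nek2 at 0.42. The Troap means, 5.58 in metastasis and 5.04 in control bladder, also lay below the chemosensory percentile.

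DNA replication genes, which act earlier in the cycle, gave similar directions. Of 37 measured, 35 had a higher mean in bladder tumor than in control bladder (median 0.22), 37 a lower one in treated bladder than in bladder tumor (median -0.19) and 36 a higher one in metastasis than in control bladder (median 0.31), and none passed. In bladder tumor against control bladder, Rrm1, the large subunit of ribonucleotide reductase, differed by 0.50, Mcm2, of the replicative helicase, by 0.38, Pole by 0.36, Gins3 by 0.33 and Mcm10 by 0.19. In treated bladder against bladder tumor, Prim1 differed by -0.45, Pole2 by -0.32, Mcm2 by -0.31, Rfc4 by -0.28 and Gins3 by -0.26. In treated bladder against control bladder, 21 of the 37 replication genes and 34 of the 70 other mitosis genes had a higher mean, against 52.8% of all genes. Without the near-mean arrays, 34 of the 37 and 66 of the 70 did, against 60.2% of all genes.

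Of 13 regulators of late cell cycle genes measured, 10 had a higher mean in tumors than in controls (median 0.05) and none passed. Mybl2 (B-MYB) averaged 5.32 ± 0.16 in tumors and 5.08 ± 0.20 in controls (SD, n = 7 and 5), a difference of 0.23 (limma unadjusted p = 0.0337, adjusted p = 0.999). Both Mybl2 means lay below 5.86, the chemosensory percentile. Tfdp1 differed by 0.40, E2f4 by 0.21, E2f5 by 0.16 and Rbl2 (p130) by -0.20. Rbl1 (p107), deleted in every group, averaged 6.63 ± 0.29 in tumors and 6.51 ± 0.23 in controls. It averaged 6.99 ± 0.87 in metastasis and 6.41 ± 0.52 in treated bladder (SD, n = 4 and 3), and read 7.50 in the treated metastasis. The part of the gene that its row reads is not given. Rbbp4, a MuvB subunit, differed by 0.53 in metastasis against bladder tumor (limma unadjusted p = 0.0282, adjusted p = 0.825).

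Smooth muscle markers ran opposite to the 37 genes in the samples lowest and highest in them. The mean over 12 smooth muscle genes was 9.38 in bladder tumor 7 and 8.36 and 8.35 in control bladder 1 and 2, the samples lowest in the mitosis genes, and 5.44 in the treated metastasis, 5.61 in metastasis 1 and 5.58 in bladder tumor 6, the highest ones. Samples that departed from that included treated bladder 2, with 8.25 for smooth muscle and a mitosis mean of 5.94, above treated bladder 1 and 3 with 6.78 and 6.54, and metastasis 2 had 5.66 for smooth muscle beside a mitosis mean of 5.68. In bladder tumor against control bladder, all 12 smooth muscle genes (median -0.61), 14 of 17 urothelial genes (median -0.20) and 7 of 10 endothelial genes (median -0.07) had a lower mean. A higher mean was seen for 17 of 20 leukocyte genes (median 0.17) and 8 of 11 fibroblast genes (median 0.10). Leaving out the near-mean arrays gave larger medians in that comparison. They were -1.53 for smooth muscle, -0.40 for urothelial, -0.20 for endothelial, 0.36 for leukocyte and 0.24 for fibroblast genes. In treated bladder against bladder tumor, 11 of 12 smooth muscle genes (median 0.55) and 16 of 17 urothelial genes (median 0.41) had a higher mean, and 9 of 11 fibroblast genes (median -0.33) and 16 of 20 leukocyte genes (median -0.18) a lower one. Without the near-mean arrays, 12 of 17 urothelial genes (median 0.18) and 11 of 12 smooth muscle genes (median 0.51) had a higher mean. Lower means were then seen for 10 of 11 fibroblast genes (median -0.34) and 17 of 20 leukocyte genes (median -0.19). Over all arrays, the fibroblast median of -0.33 lies beside the -0.30 of the mitosis genes in that comparison.

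The metastasis comparisons carried larger marker differences. Against control bladder, all 12 smooth muscle genes (median -1.23), 16 of 17 urothelial genes (median -0.73) and 9 of 10 endothelial genes (median -0.21) had a lower mean in metastasis. A higher mean was seen for 15 of 20 leukocyte genes (median 0.51). Without the near-mean arrays these medians were -2.7 for smooth muscle, -1.2 for urothelial, -0.4 for endothelial and 1.3 for leukocyte genes. Against bladder tumor, all 12 smooth muscle genes (median -0.54), 15 of 17 urothelial genes (median -0.54) and all 10 endothelial genes (median -0.14) had a lower mean in metastasis, and 13 of 20 leukocyte genes (median 0.18) a higher one. The mean over the 17 urothelial genes ranged from 5.16 to 6.41 in metastasis, 6.44 to 7.50 in treated bladder, 5.52 to 8.71 in bladder tumor and 6.46 to 7.60 in control bladder. The mean over the 20 leukocyte genes ranged from 5.96 to 7.35 in metastasis, 5.67 to 6.11 in treated bladder, 5.54 to 6.99 in bladder tumor and 5.41 to 6.32 in control bladder. None of these marker genes passed the test in these 4 comparisons, and the part of tissue makeup in the differences of the mitosis genes was not tested.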

How the data were processed

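The authors deposited log2 values computed by RMA (Affymetrix Expression Console, according to the submitters' processing notes) from 12 ng of RNA extracted with a kit for fixed, embedded tissue, per the labels' protocols. RMA equalises arrays, so differences in total RNA are removed. Rows with 1 symbol in the platform annotation (30604 of 65956) gave 30142 genes, the row with the highest mean being kept. In 284 rows some values exceed 16, beyond a 16-bit scanner. limma 3.58.1 (R 4.3.3; lmFit, eBayes) fitted group means to 19 arrays of 4 groups, with two-sided p-values adjusted by Benjamini-Hochberg over all genes in each of 5 comparisons; adjusted p under 0.05 was a call. Differences run from the first-named group minus the second. No arrays held identical values. All members were named for bladder tumor against control bladder and for treated bladder against bladder tumor. In the other comparisons only some of the members with the largest differences or smallest p were named. From other lists, up to 5 genes by p were named. Members, lists and tests were chosen with earlier results of these data known. The fit was tested on simulated data. Further engineered alleles are not reported here.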

Additional observations from a re-analysis of the deposited data

Results flagged for a closer look

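In 12 of 111 groups of 4 to 7 arrays (37 genes in metastasis, bladder tumor and control bladder), 1 array stood far from the others, by a gap that was large against the group's range (Dixon's 95% critical value), which chance gives in about 1 group in 20, and the genes of 1 array are not independent. That rate assumes arrays of like spread. It need not hold here, since the near-mean arrays in these groups varied less (median SD 0.16 against 0.52 in the other arrays). Metastasis 1 accounted for 8 of the 12, with log2 levels of 5.58 for Ccnb2, 7.85 for Ccna2, 5.93 for Bub1, 6.51 for Ect2, 7.85 for Nusap1, 7.44 for Ube2c, 9.31 for Mki67 and 6.92 for Ncaph. The nearest other metastasis read 5.18, 6.51, 5.24, 5.62, 5.82, 6.35, 6.73 and 5.83 for the same genes in that order. Bladder tumor 6 read 7.82 for Plk1, where the next tumor read 6.21, and 5.82 for Birc5, where the next read 5.27. Bladder tumor 7 read 5.08 for Aurkb, below the next tumor at 5.39. Control bladder 4, a near-mean array, read 5.07 for Cdca5, above the next control at 4.31. Metastasis 1 had a leukocyte marker mean of 7.35, the highest of all 20 arrays, and a smooth muscle mean of 5.61, and their part in these values was not tested.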

How the results depend on the processing

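No member passed in any of the 5 comparisons under any alternative run with limma, which were each comparison's groups alone, a robust, trended prior, array weights, median centring of arrays, repeated quantile normalization, dropping the dimmest 25% of genes, averaging rows of a gene, the replicate number as a block, leaving out each array, leaving out the near-mean arrays, and the chemosensory mean or, added after seeing the data, the near-mean set as a covariate. The near-mean arrays, 8 of 20, limit all 5 comparisons over all arrays, and the comparisons with treated bladder are limited by its 3 arrays as well. Signal over background could not be computed from these values.

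Leaving out the near-mean arrays moved the median difference to 0.75 for bladder tumor minus control bladder and to 0.90 for metastasis minus control bladder. The number of the 37 with a higher mean in treated bladder than in control bladder, 22 over all arrays, was 37 with the replicate block and without the near-mean arrays, 35 with the chemosensory mean, and 5 to 34 with 1 array left out. Higher means in treated bladder than in bladder tumor, 0 over all arrays, were 1 with array weights and with the near-mean covariate and 0 to 2 with 1 array left out. Higher means in metastasis than in bladder tumor, 23 over all arrays, were 3 to 31 with 1 array left out. The cause of these moves was not tested. Replicate numbers did not pair the samples: over 20 same-numbered pairs the correlation of deviations had a median of -0.07, and 3 pairs were above 0.1.

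Of 2790 values for single named members under the alternatives, 2715 kept their sign and their side of the threshold and 75 turned sign, none of them past the threshold. With array weights, the sign turned in treated bladder minus control bladder for Kif11 (0.027), Kif23 (-0.012), Anln (0.029), Ect2 (0.032) and Nusap1 (0.0). With quantile normalization once more, the sign turned in treated bladder minus control bladder for Ube2c (-0.007). With the replicate block, the sign turned in treated bladder minus control bladder for Ttk (0.029), Kif11 (0.11), Anln (0.16), Ect2 (0.12), Nusap1 (0.16) and Smc2 (0.19). Without the near-mean arrays, the sign turned in treated bladder minus control bladder for Ttk (0.21), Kif11 (0.44), Anln (0.37), Ect2 (0.27), Nusap1 (0.49) and Smc2 (0.33). With the chemosensory mean as a covariate, the sign turned in treated bladder minus control bladder for Kif11 (0.086), Anln (0.052), Ect2 (0.031), Nusap1 (0.19) and Smc2 (0.21). With the chemosensory mean as a covariate, the sign turned in metastasis minus bladder tumor for Ube2c (-0.017) and Top2a (-0.015). With 1 array left out, the values in treated bladder minus control bladder that changed sign ran over these ranges: Ccna2 (-0.23 to 0.33), Kif23 (-0.47 to 0.41), Cenpf (-0.13 to 0.18), Birc5 (-0.007 to 0.12), Ube2c (-0.24 to 0.31), Top2a (-0.32 to 0.38), Mki67 (-0.45 to 0.66), Kif11 (-0.28 to 0.10), Anln (-0.23 to 0.041), Nusap1 (-0.37 to 0.12), Ect2 (-0.19 to 0.045), Smc2 (-0.45 to 0.12), Plk1 (-0.044 to 0.30), Spc25 (-0.017 to 0.24) and Cenpa (-0.053 to 0.22). With 1 array left out, the values in metastasis minus bladder tumor that changed sign ran over these ranges: Ccna2 (-0.11 to 0.43), Kif11 (-0.16 to 0.37), Kif23 (-0.29 to 0.50), Nuf2 (-0.062 to 0.20), Cenpa (-0.055 to 0.22), Cenpf (-0.036 to 0.30), Prc1 (-0.082 to 0.58), Anln (-0.057 to 0.27), Tpx2 (-0.036 to 0.51), Nusap1 (-0.20 to 0.59), Ube2c (-0.20 to 0.24), Top2a (-0.27 to 0.48), Mki67 (-0.28 to 0.64) and Smc2 (-0.18 to 0.51). With 1 array left out, the values in treated bladder minus bladder tumor that changed sign ran over these ranges: Kif23 (-0.88 to 0.007). The cause was not tested.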

Other observations

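Among genes not described above, Cdt1, which licenses replication origins, averaged 5.09 ± 0.09 in metastasis, 4.89 ± 0.19 in bladder tumor and 4.80 ± 0.14 in control bladder (SD, n = 4, 7 and 5). Its difference of metastasis from control bladder was 0.29 (limma unadjusted p = 0.0166, adjusted p = 0.676). Mcm4, of the replicative helicase, differed by 0.51 in metastasis minus bladder tumor, and Mcm3 by 0.74, Rrm1 by 0.91 and Rfc4 by 0.51 in metastasis minus control bladder. In metastasis against bladder tumor, where 38 of the 70 other mitosis genes had a higher mean and 32 a lower one (median 0.02), Depdc1b had the smallest p of that list, with 4.66 ± 0.13 in metastasis and 4.85 ± 0.18 in bladder tumor (limma unadjusted p = 0.0579, adjusted p = 0.825). In treated bladder minus control bladder, Mybl2 differed by 0.15, Nek2 by 0.17, Fen1, which processes Okazaki fragments, by -0.15 and Rbl2 by -0.19, with none passing.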
